A study of Mus musculus with 16 samples.

Results

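Killer lectin-like receptors are C-type lectin proteins of the surface of natural killer cells and activated CD8+ T cells, and 7 of their genes were followed here between CD8+ T cells that had received a Control gRNA and cells that had received a Tardbp gRNA. The members are Klrg1, Klrd1, Klrc1, Klrc2, Klrk1, Klre1 and Klrb1c, found by their GENCODE M21 symbol among 55536 annotated mouse genes of the gene count table. All 7 passed the filter on low counts and were among the 16650 genes tested. Against the same Control gRNA libraries, Klrg1 and Klrd1 rose, Klrc1 and Klrc2 fell, and Klrk1, Klre1 and Klrb1c did not pass the test.

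The cells were OT-I T cells, whose transgenic T cell receptor recognises SIINFEKL, a peptide of ovalbumin, labelled as strain OT-1 Tg C57BL/6J. They were electroporated with Cas9 and either a Control gRNA (labelled scrambled gRNA, 8 libraries) or a Tardbp gRNA (8 libraries) and transferred into C57BL/6J mice. All recipients, in both groups, were given antigen together with the costimulatory agonist antibodies anti-OX40 and anti-41BB, so that no group here lacked stimulation. The labels give spleen and lymph nodes taken after 4 days, and CD8+ T cells were sorted before RNA extraction. Per the methods, each library came from an individual recipient and the donors lacked Rag, and mice of both sexes and a range of ages were used without an age per library. The deposited sex letters were 3 M and 5 F in Control gRNA and 5 M and 3 F in Tardbp gRNA. Editing was done in a bulk population, so a library can hold edited and unedited cells. The paper reports an immunoblot of pooled cells from this model, in which Tardbp protein was not produced after the Tardbp gRNA.

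In these receptors, ligand recognition and signalling are divided between partner proteins. CD94, the product of Klrd1, pairs either with NKG2A (Klrc1), whose cytoplasmic tail carries inhibitory motifs, or with NKG2C (Klrc2), which signals through the adaptor DAP12 (Tyrobp), and both pairs read the nonclassical class I molecule Qa-1 (H2-T23) on other cells. NKG2D (Klrk1) binds stress-induced ligands and signals through DAP10 (Hcst) in T cells. KLRG1 is an inhibitory receptor for cadherins and a widely used marker of short-lived effector CD8+ T cells, Klre1 encodes a receptor that pairs with Klri proteins, and Klrb1c encodes NK1.1, an antigen used to identify natural killer cells in C57BL/6 mice.

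The genes lie on chromosome 6 (GRCm38). Klrb1c spans 128778485 to 128789215 on the minus strand. Klre1 (129577905 to 129585827) and Klrd1 (129591782 to 129598775) are on the plus strand, followed by Klrk1 (129610323 to 129623864), Klrc2 (129647496 to 129660689) and Klrc1 (129666015 to 129678973) on the minus strand. Klrg1 lies apart, at 122270596 to 122282882 on the minus strand. Klrc1 and Klrc2 are near copies of each other, and because reads were assigned to one or the other, parts of their coding exons are shown here from the GENCODE M21 transcripts (GRCm38, minus strand, written 5′ to 3′ of the transcript). Capitals mark the bases at which the Klrc1 and the Klrc2 exon differ. The pair of 102-base exons, chr6:129678296-129678397 in Klrc1 and chr6:129659978-129660079 in Klrc2, differed at 31 bases (69.6% identity).
Klrc1, exon of 102 bases: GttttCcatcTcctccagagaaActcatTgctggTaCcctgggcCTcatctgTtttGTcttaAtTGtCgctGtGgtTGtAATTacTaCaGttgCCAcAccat
Klrc2, exon of 102 bases: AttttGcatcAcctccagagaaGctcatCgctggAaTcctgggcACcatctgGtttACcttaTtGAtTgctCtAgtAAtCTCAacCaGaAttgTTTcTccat
By contrast, the pair of 176-base exons, chr6:129677147-129677322 in Klrc1 and chr6:129658666-129658841 in the Klrc2 transcript Klrc2-201, differed at 3 bases (98.3% identity), none of them among the first 24 bases.
Klrc1, exon of 176 bases: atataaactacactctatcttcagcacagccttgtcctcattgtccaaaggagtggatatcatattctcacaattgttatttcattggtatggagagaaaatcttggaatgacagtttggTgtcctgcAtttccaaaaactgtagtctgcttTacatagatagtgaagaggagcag
Klrc2, exon of 176 bases: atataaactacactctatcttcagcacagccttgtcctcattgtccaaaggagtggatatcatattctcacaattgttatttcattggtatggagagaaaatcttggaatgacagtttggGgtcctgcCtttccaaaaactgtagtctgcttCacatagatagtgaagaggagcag
The pair of 101-base exons, chr6:129675300-129675400 and chr6:129656812-129656912, differed at 4 bases (96.0% identity).
Klrc1, exon of 101 bases: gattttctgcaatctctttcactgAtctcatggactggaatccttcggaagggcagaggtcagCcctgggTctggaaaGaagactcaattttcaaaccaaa
Klrc2, exon of 101 bases: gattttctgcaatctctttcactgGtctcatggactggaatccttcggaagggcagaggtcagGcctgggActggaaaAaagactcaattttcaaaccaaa

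Of all windows of 100 bases, the read length, in the main Klrc1 transcript, 15.9% also occurred in a Klrc2 transcript, and 12.8% of those in the main Klrc2 transcript occurred in Klrc1 or Klrc3. For Klrb1c, 12.6% occurred in Klrb1a or Gm44511. No window of the main transcripts of Klrg1, Klrd1, Klrk1 or Klre1 occurred in a transcript of another gene. Counts of Klrc1, Klrc2 and Klrb1c therefore include reads that could come from either copy and that the authors' counting had to assign, which leaves their values uncertain to that extent.

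The libraries held 73649630 to 93893357 counts (Control gRNA) and 56016533 to 94801105 counts (Tardbp gRNA). Tardbp itself, the targeted gene, had 110 to 147 CPM (counts scaled to a library total of 1000000) in Tardbp gRNA against 172 to 207 CPM in Control gRNA, and all 8 Tardbp gRNA libraries lay below every Control gRNA library. Values are CPM of the deposited estimated counts after TMM scaling unless another scale is named, and a gene was called at an edgeR adjusted p under 0.05. By this rule 46.7% of all tested genes were called, 23.5% higher and 23.3% lower in Tardbp gRNA, with a median log2 fold change over all genes of 0.0464. Of the 7 members 4 were called, 2 higher and 2 lower, at a median log2 fold change of 0.24. That share of called genes is near the share among all genes. Groups that did not overlap in any library were 6.61% of all genes on the higher side and 10.3% on the lower side, and none of the 7 members was among them.

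**Figure D1:**
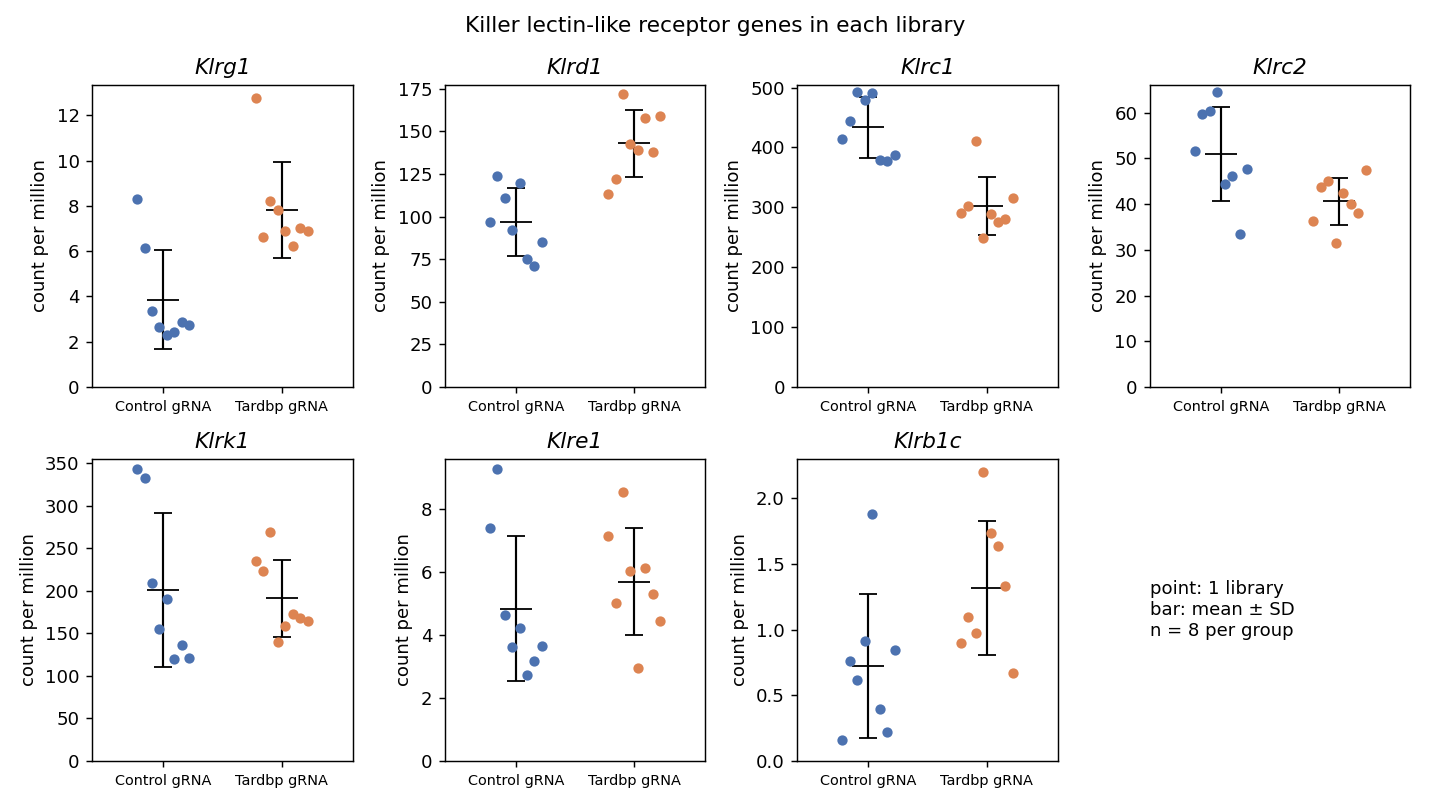
CPM (linear axes from 0) of the 7 receptor genes, with a point for each library, 8 per group, and bars for the mean ± SD. Klrd1 and Klrg1 lie higher and Klrc1 lower in Tardbp gRNA with some overlap, while Klrk1, Klre1 and Klrb1c overlap widely.

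Klrd1 and Klrc1, whose products form the inhibitory receptor, moved in opposite directions. Klrd1, the shared CD94 chain, had a lowest, median and highest library of 71.2, 94.6 and 124 CPM in Control gRNA and of 113, 141 and 172 CPM in Tardbp gRNA. Of the Tardbp gRNA libraries, 6 of 8 lay above every Control gRNA library. Klrd1 rose by 0.56 on the log2 scale (SE 0.115, n = 8 per group, edgeR adjusted p 0.00055). Klrc1, the inhibitory NKG2A chain, had 378, 430 and 492 CPM in Control gRNA and 248, 289 and 412 CPM in Tardbp gRNA. All but 1 of the Tardbp gRNA libraries lay below every Control gRNA library, and the exception was replicate 3, which was also the highest Tardbp gRNA library for Klrd1. Klrc1 fell by 0.52 on the log2 scale (SE 0.0885, n = 8 per group, edgeR adjusted p 9.2e-05), to 69.6% of the Control gRNA mean. Sorted cells were sequenced in bulk, so fewer cells that express a gene and less RNA per cell cannot be told apart here or in any result below.

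Klrc2, the activating NKG2C chain, also fell. It had 33.5, 49.6 and 64.4 CPM in Control gRNA and 31.6, 41.3 and 47.5 CPM in Tardbp gRNA, and the groups overlapped except for 1 Tardbp gRNA library. It fell by 0.33 on the log2 scale (SE 0.115, n = 8 per group, edgeR adjusted p 0.0255). Leaving out Control gRNA replicate 2 or 3 raised the adjusted p to 0.0515 or 0.0545 (edgeR), so this call rests on single libraries, which is not so for Klrg1, Klrd1 and Klrc1.

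Ratios within a library hardly depend on its scaling, and 5 of them were compared with exact two-sided permutation tests over all splits of 8 against 8 libraries, with p-values adjusted over the 5. The log2 ratio of Klrc1 to Klrd1 was 1.08 ± 0.22 (SD, n = 8) in Tardbp gRNA against 2.18 ± 0.19 (SD, n = 8) in Control gRNA, a fall by 1.10 (SE 0.102, exact permutation p 0.00016, the smallest these splits can give, adjusted p 0.00078). In linear terms, and without scaling for length, Klrc1 counts were 4.53 times those of Klrd1 in Control gRNA and 2.11 times in Tardbp gRNA. The libraries did not overlap, with 1.85 as the lowest Control gRNA value and 1.36 as the highest Tardbp gRNA value. This was the only one of the 5 ratios without overlap between groups.

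The other ratios among receptors moved less. The log2 ratio of Klrc2 to Klrc1 was -3.11 ± 0.24 (SD, n = 8) and -2.89 ± 0.16 (SD, n = 8), a difference that missed the threshold (exact permutation p 0.0474, adjusted p 0.0592). That of Klrd1 to Klrk1 went from -0.96 ± 0.44 to -0.40 ± 0.41 (SD, n = 8 per group, exact permutation adjusted p 0.029), and the call was lost when any 1 of the Tardbp gRNA replicates 4 to 8 was left out (exact permutation adjusted p 0.0508 to 0.0606). The log2 ratio of Klrg1 to Klrd1 was -4.77 ± 0.63 and -4.21 ± 0.46 (SD, n = 8 per group), which did not pass the test (exact permutation adjusted p 0.0639). Without Control gRNA replicate 1 that difference was 0.73, with an exact permutation adjusted p of 0.00414.

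**Figure D2:**
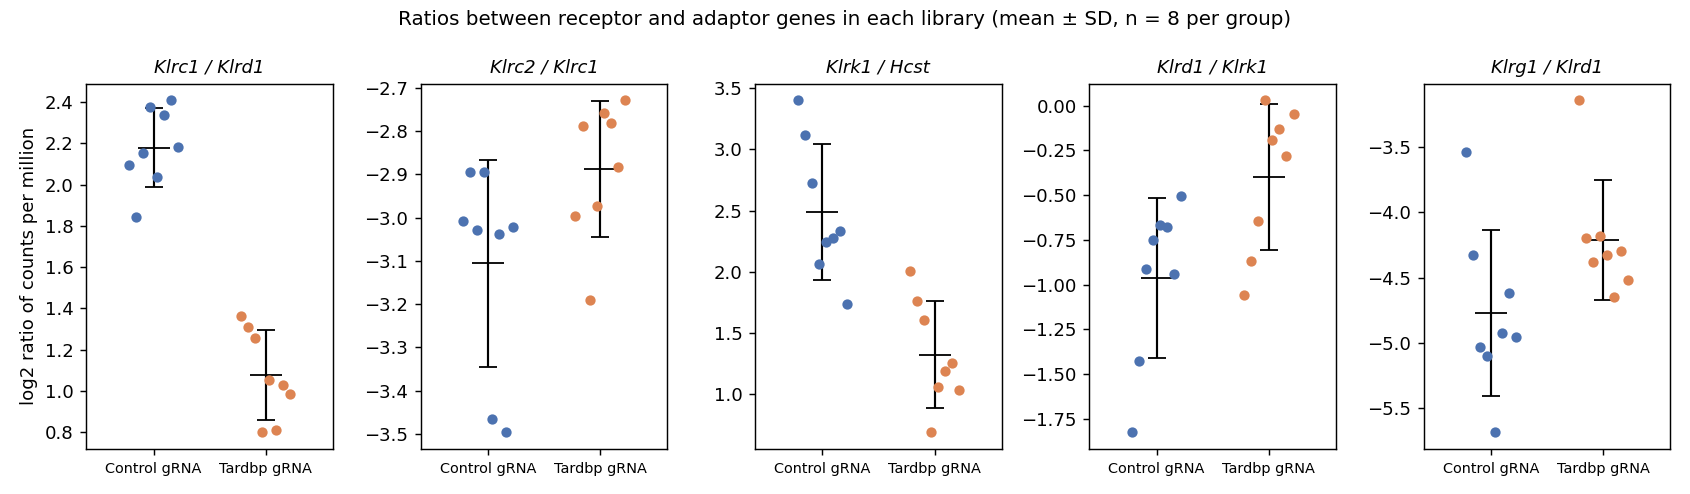
The log2 ratio of CPM for 5 gene pairs in each library, 8 per group, with bars for the mean ± SD. Klrc1 to Klrd1 is the pair whose groups do not meet (Control gRNA from 1.85 up, Tardbp gRNA up to 1.36), and Klrk1 to Hcst is lower in Tardbp gRNA with overlap.

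NKG2D and its adaptor did not move together. Klrk1 had 120, 172 and 343 CPM in Control gRNA and 140, 170 and 269 CPM in Tardbp gRNA, and no Tardbp gRNA library lay outside the Control gRNA range. Its log2 fold change was -0.07 (SE 0.22, n = 8 per group, edgeR adjusted p 0.818), so a difference as large as this error, or somewhat larger, could be missed. Hcst, which encodes the DAP10 adaptor that carries the NKG2D signal, had 24.8, 34.4 and 40.01 CPM in Control gRNA and 58.4, 76.0 and 88.2 CPM in Tardbp gRNA. All 8 Tardbp gRNA libraries exceeded every Control gRNA library, and Hcst rose by 1.17 on the log2 scale (SE 0.104, n = 8 per group, edgeR adjusted p 1.2e-07). The log2 ratio of Klrk1 to Hcst fell from 2.49 ± 0.56 to 1.32 ± 0.43 (SD, n = 8 per group, exact permutation adjusted p 0.00117). Control gRNA replicate 8, at 1.73, lay within the Tardbp gRNA values, which ran from 0.69 to 2.01. With Klrk1 at -0.07 and Hcst at 1.17, the fall of this ratio restates the rise of Hcst and is no separate result.

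Klrg1 was a low gene that rose, with 1 of 8 Tardbp gRNA libraries above every Control gRNA library. It had 2.31, 2.80 and 8.32 CPM in Control gRNA and 6.25, 6.96 and 12.8 CPM in Tardbp gRNA. Control gRNA replicates 1 and 2, at 8.32 and 6.15 CPM, stood above the other 6 Control gRNA libraries, which ran up to 3.36 CPM, and Tardbp gRNA replicate 1 was the highest of all. Klrg1 rose by 1.02 on the log2 scale (SE 0.256, n = 8 per group, edgeR adjusted p 0.00306), and the mean in Tardbp gRNA was 203% of that in Control gRNA.

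Klre1 and Klrb1c were also low. Klre1 had 2.73, 3.94 and 9.27 CPM in Control gRNA and 2.94, 5.67 and 8.53 CPM in Tardbp gRNA, within the same range, and its log2 fold change was 0.24 (SE 0.247, edgeR adjusted p 0.454). Klrb1c, the NK1.1 gene, had 0.156, 0.688 and 1.88 CPM in Control gRNA and 0.672, 1.21 and 2.20 CPM in Tardbp gRNA, which over all 16 libraries was a total of 1336 counts. Its log2 fold change was 0.86 (SE 0.397, edgeR adjusted p 0.0829). Without Control gRNA replicate 5, the highest Control gRNA library, it was 1.24 and passed the test (edgeR adjusted p 0.0093).

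The order of the genes was read per length, as the CPM divided by the kilobases of each transcript and summed over the transcripts of a gene. In Control gRNA, Klrc1 was highest at 227 ± 25.5 (SD, n = 8), followed by Klrk1 at 125 ± 57.3 and Klrd1 at 112 ± 23.01 CPM per kilobase. In Tardbp gRNA, Klrd1 was at 166 ± 23.2, Klrc1 at 157 ± 25.8 and Klrk1 at 121 ± 28.6 CPM per kilobase (SD, n = 8). In Control gRNA, Klrc1 overlapped Klrk1 and Klrk1 overlapped Klrd1, while Klrc1 (198 to 258) lay above Klrd1 (82.5 to 144) in all libraries. In Tardbp gRNA neighbours in this order overlapped as well. Klrc2 stood below them without overlap, at 25.8 ± 6.14 and 19.7 ± 2.70 CPM per kilobase (SD, n = 8). Klre1 and Klrg1, between 2.73 and 5.53 on this scale in their group means, overlapped each other, and Klrb1c was lowest at 0.296 and 0.574. Hcst was at 76.3 ± 12.5 CPM per kilobase in Control gRNA and at 171 ± 23.02 in Tardbp gRNA, while Tyrobp was at 2.56 ± 1.58 and 6.85 ± 3.83 (SD, n = 8), below Klrd1, Klrk1 and Klrc2 in each group without overlap.

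**Figure D3:**
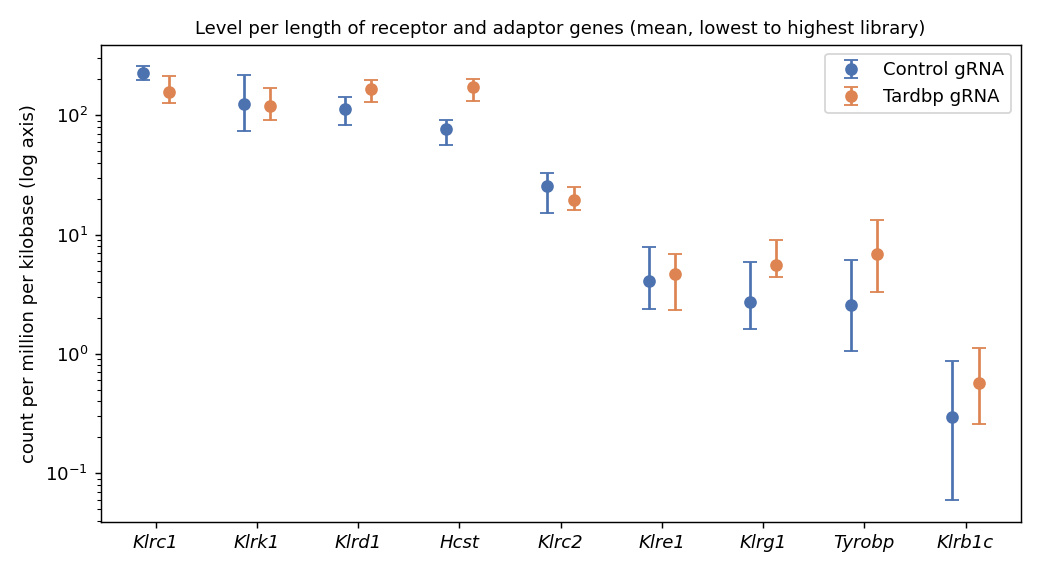
Level per length of the 7 receptor genes and the adaptor genes Hcst and Tyrobp, in CPM per kilobase on a log axis, with points for the group means of 8 libraries and bars from the lowest to the highest library. Klrc1, Klrk1, Klrd1 and Hcst are the high genes in both groups, and Hcst moves from 76.3 to 171.

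Klrk1 was divided by the library numbers of the labels in both groups. It had 209 to 343 CPM in Control gRNA replicates 1 to 3 and 120 to 190 CPM in replicates 4 to 8, and 223 to 269 against 140 to 172 CPM in Tardbp gRNA. The same replicates of Control gRNA were higher in Klre1, at 4.65 to 9.27 against 2.73 to 4.22 CPM, and in Klrg1, at 3.36 to 8.32 against 2.31 to 2.87 CPM, while in Tardbp gRNA the ranges of both genes overlapped. What the numbers stand for is not given in the sources used here, and these ranges were chosen with earlier results known. Fits within each range called a smaller share of genes, 10.1% of all genes tested with replicates 1 to 3 and 40.8% with replicates 4 to 8. With replicates 4 to 8 alone, Klrg1 rose by 1.42 and Klrd1 by 0.73 and Klrc1 fell by 0.59 on the log2 scale (edgeR adjusted p 3.2e-06, 0.00039 and 0.00019), and Klrc2 was not called (adjusted p 0.222). With replicates 1 to 3 alone, Klrc2 was called, at -0.49 (edgeR adjusted p 0.0424), while Klrg1 (0.60), Klrd1 (0.26) and Klrc1 (-0.46) kept their sign and were not (edgeR adjusted p 0.32, 0.356 and 0.0668).

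**Figure D4:**
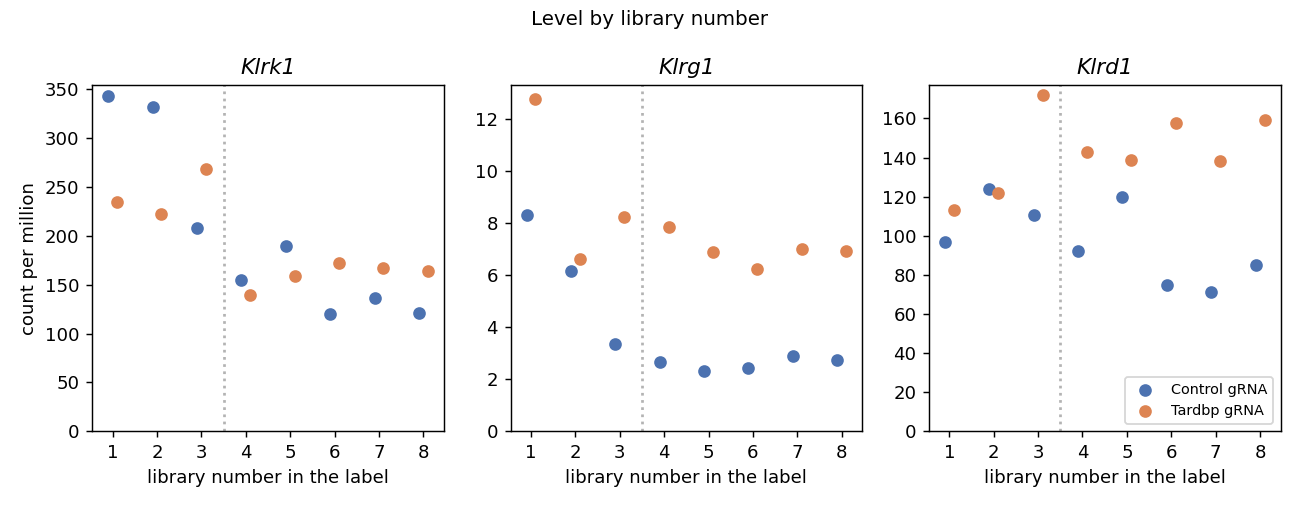
CPM (linear axes from 0) of Klrk1, Klrg1 and Klrd1 against the library number in the labels, with the dotted line between numbers 3 and 4. In Klrk1, numbers 1 to 3 lie above numbers 4 to 8 of their own group in both groups, and in Klrg1 the groups separate fully only among numbers 4 to 8 (2.31 to 2.87 against 6.25 to 7.83).

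The deposited RNA concentration also differed between groups without overlap, being 34.9 to 197.1 for Control gRNA and 10.1 to 24.0 for Tardbp gRNA libraries (no unit given), so RNA yield and group cannot be told apart. With its log2 value as a covariate 1 of the 4 member calls was kept, that of Klrg1 (log2 fold change 1.95, edgeR adjusted p 0.0136). Over all genes the covariate left 16.2% called, in place of 46.7%. The log2 fold changes of Klrd1 and Klrc1 were then 0.61 and -0.52, close to those without the covariate, at edgeR adjusted p 0.108 and 0.0692. No interaction of group and sex letter was called in a member: the edgeR test called 0 of 7 members and 0 of all genes, with 662 genes and no member at an unadjusted p under 0.05.

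At the level of transcripts, 23 of the 30 annotated transcripts of the 7 genes could be tested and 5 were called, against 16.6% of all transcripts tested. Klrg1-201, the single Klrg1 transcript, and Klrd1-202, which held 93.7 ± 0.69% and 93.8 ± 1.23% of Klrd1 counts (SD, n = 8), rose by 0.97 and 0.52 on the log2 scale (edgeR adjusted p 0.0281 and 0.00431). Klrc1-201, with 97.9 ± 0.32% and 98.4 ± 0.31% of Klrc1 counts (SD, n = 8), fell by 0.56 (edgeR adjusted p 0.0002), and the minor coding transcripts Klrc1-203 and Klrc1-204 fell by 0.99 and 0.93 (edgeR adjusted p 0.0219 and 0.00114). As a share of its gene, no transcript was called: of 21 shares tested none passed limma's adjusted p under 0.05 with a difference over 0.1, 6 had an unadjusted p under 0.05, and the lowest adjusted p was 0.0954. Among all transcripts 0.63% of shares were called. The shares of Klrb1c were not tested, because of its transcripts only Klrb1c-201 passed the filter. Klrb1c-201 held 95.0 ± 13.05% of Klrb1c counts in Control gRNA and 78.8 ± 20.3% in Tardbp gRNA. Klrb1c-203 held 5.0 ± 13.05% and 21.2 ± 20.3% (SD, n = 8 per group), at 299 counts over all libraries. Klrk1 was divided between Klrk1-205 (38.5 ± 1.98% and 36.5 ± 2.41%), Klrk1-201 (36.2 ± 2.08% and 35.3 ± 3.898%) and Klrk1-202 (15.8 ± 2.82% and 16.7 ± 3.47%; SD, n = 8 per group). NKG2D is known to occur in a long and a short form that differ at the N terminus and in adaptor use, and the difference in share between groups was at most 2.097 percentage points in these Klrk1 transcripts.

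Psi (percent spliced in) measures how often a stretch of RNA, or node, is kept in the transcript, and was given by the authors as 1 value per group, so it has no replicate error and its read depth is unknown. The 7 genes had 59 nodes in the table. Of these 3 differed by over 5 percentage points between groups, and all 3 were in Klrc1 and Klrc2. The share of all nodes that differed by as much is not given here, so this count does not set the members apart. In the authors' deposited table, the 102-base Klrc1 exon printed above rose in Psi from 0.679 (Control gRNA) to 0.754 (Tardbp gRNA), and the next coding exon, of 51 bases, from 0.66 to 0.753. The latter lies at chr6:129677765-129677815 on the minus strand and is shown because no other whole exon of a member moved by more in Psi.
Klrc1, exon of 51 bases: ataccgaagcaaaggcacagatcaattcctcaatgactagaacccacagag
In the transcript counts the same exons had a far higher inclusion, 97.0 ± 0.50% and 97.7 ± 0.33% for the 102-base exon and 97.3 ± 0.78% and 98.0 ± 0.70% for the 51-base exon (SD, n = 8 per group), as the length-scaled share of transcripts that hold them. The transcripts that lack one of these exons, Klrc1-204 and Klrc1-203, are those with the lowest log2 fold changes among the called transcripts, and 0 annotated Klrc1 transcripts lack both. The level of inclusion therefore depended on the measure. The means were higher in Tardbp gRNA by either measure, in the transcript counts by 0.711 and 0.727 percentage points, which were not tested.

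The largest Psi difference of any member node was in Klrc2. The 24-base alternative acceptor at chr6:129658818-129658841, the start of the 176-base exon printed above, went in Psi from 0.373 (Control gRNA) to 0.228 (Tardbp gRNA) in the authors' deposited table, a fall by 14.5 percentage points. These 24 bases were identical in Klrc1, where they are part of an exon with a Psi of 0.9996 and 0.9994, and Klrc1 counts fell between the same groups. The part of Klrc1 reads in the Klrc2 value was not tested. The node belongs to Klrc2-201 and to the retained-intron transcript Klrc2-206. In the transcript counts, the share of Klrc2-201 was 7.75 ± 9.99% and 7.70 ± 5.29% (SD, n = 8), and that of Klrc2-206 was 4.73 ± 0.91% and 6.79 ± 1.39% (SD, n = 8, limma adjusted p 0.194), a difference of the opposite sign to that in Psi that was not called. The nodes of Klrk1 and Klrd1 moved by at most 1.68 and 1.40 percentage points, and those of Klrg1 by at most 4.24.

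Around the receptors, 20 adaptors and signal proteins were listed, of which 19 were tested, 6 were higher and 5 lower, at a median log2 fold change of 0.08. Beside this list and those below, the shares over all genes were 46.7% called, 23.5% higher and 23.3% lower. The highest were the transmembrane adaptors, Tyrobp (1.42, SE 0.366, edgeR adjusted p 0.00376), Fcer1g (1.32) and Hcst (1.17). Tyrobp had 0.603, 1.33 and 3.45 CPM in Control gRNA and 1.904, 2.99 and 7.57 CPM in Tardbp gRNA, and 4 of 8 Tardbp gRNA libraries exceeded every Control gRNA library. Tyrobp and Fcer1g are also expressed by natural killer and myeloid cells, the myeloid marker Lyz2 rose by 1.58 on the log2 scale, and the part of such cells in these values was not tested. The lowest were Plcg2, a phospholipase C (-0.67, SE 0.128, edgeR adjusted p 0.00031), Inpp5d, which encodes the inositol phosphatase SHIP-1 that acts downstream of inhibitory receptors (-0.43), and Vav1, an exchange factor used in NKG2D signalling (-0.26). The phosphatase genes Ptpn6 (-0.08) and Ptpn11 (-0.13), whose products bind the inhibitory motifs of NKG2A, were not called (edgeR adjusted p 0.188 and 0.079).

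Of 21 ligand genes 17 were in the annotation and 8 were tested, and 5 were higher and 1 lower (median log2 fold change 0.30). H2-T23, which encodes the Qa-1 heavy chain read by CD94 and NKG2 pairs, had 243, 292 and 349 CPM in Control gRNA and 326, 430 and 452 CPM in Tardbp gRNA. It rose by 0.46 on the log2 scale (SE 0.0811, n = 8 per group, edgeR adjusted p 0.00014), and 7 of 8 Tardbp gRNA libraries lay above every Control gRNA library. The NKG2D ligand genes H60b (1.40, SE 0.35) and Ulbp1 (0.44, SE 0.109) rose as well (edgeR adjusted p 0.00294 and 0.00292), H60b from a mean of 0.178 to 0.474 CPM. Clec2d, a ligand gene of the Klrb1 family, fell by 0.36 (edgeR adjusted p 0.0115). Cdh1, which encodes the KLRG1 ligand E-cadherin, was near the lower limit of the table, at a mean of 0.188 and 0.204 CPM (log2 fold change 0.11, edgeR adjusted p 0.936).

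Other genes of the receptor family were mostly low. Of 22 listed, 21 were in the annotation and 7 had counts enough to test, of which 1 was higher, 1 lower and 5 not called (median log2 fold change 0.10). Klra7, an Ly49 receptor, had a mean of 0.0847 CPM in Control gRNA and 0.454 in Tardbp gRNA (edgeR adjusted p 0.0104). Klri2, whose product can pair with that of Klre1, fell by 0.90 on the log2 scale (SE 0.23, edgeR adjusted p 0.00361), from 2.73 ± 0.55 to 1.46 ± 0.64 CPM (SD, n = 8 per group). Klrc3, the third gene of the NKG2 group here, had 0.775 and 0.830 CPM (log2 fold change 0.10, SE 0.252), and Klra10 and Klra14-ps had a count of 0 in every library.

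Klrg1 and the NKG2 genes are used to place effector CD8+ T cells along differentiation, so regulators and markers of that process were set beside them. Among 11 regulators of terminal effector cells, 2 were higher and 6 lower (median log2 fold change -0.39). Il12rb2, a subunit of the interleukin-12 receptor, fell by 1.96 (SE 0.247, edgeR adjusted p 3.7e-06), and Prdm1, which encodes Blimp-1 (-1.003), and Il2ra, the high-affinity interleukin-2 receptor chain (-0.97), fell as well, while the transcription factor genes Eomes (1.06, SE 0.351, edgeR adjusted p 0.0191) and Zeb2 (0.64) rose. Among 8 regulators of memory precursor cells, 7 were higher and none lower (median 0.66). Bach2, a repressor of effector genes, rose by 1.32 (SE 0.181), Id3 by 0.98 and Bcl6 by 0.79, and Lef1 (0.37) and Foxp1 (0.60) were the lowest of the called genes. Klf2 (0.52, edgeR adjusted p 0.124) did not pass the test.

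Markers did not divide along the same line. Of 9 markers of terminal effector cells 4 were higher, 0 lower and 5 not called (median 0.64). The share called in this list was near that among all genes (46.7%). Ifng at 1.30 (SE 0.157) and the granzyme gene Gzma at 0.83 (SE 0.267) were among those that rose. These are RNA levels. For protein, the paper reports less interferon gamma from Tardbp knockout cells after restimulation, which was not measured here. Cx3cr1 (0.32), Gzmb (-0.46) and Havcr2 (-0.12) were among those not called. Zeb2 is in this list as well as among the regulators. Of 8 markers of memory precursor cells 5 were higher and 3 lower (median 0.32). The costimulatory receptor gene Cd27 rose by 0.72 and Bcl2 by 0.54, and the interleukin-7 receptor gene Il7r fell by 0.51, the chemokine receptor gene Cxcr3 by 0.27 and Ccr7 by 0.22. Klrg1 thus rose beside genes of both lists, and Il7r, the gene it is usually read against, fell.

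**Figure D5:**
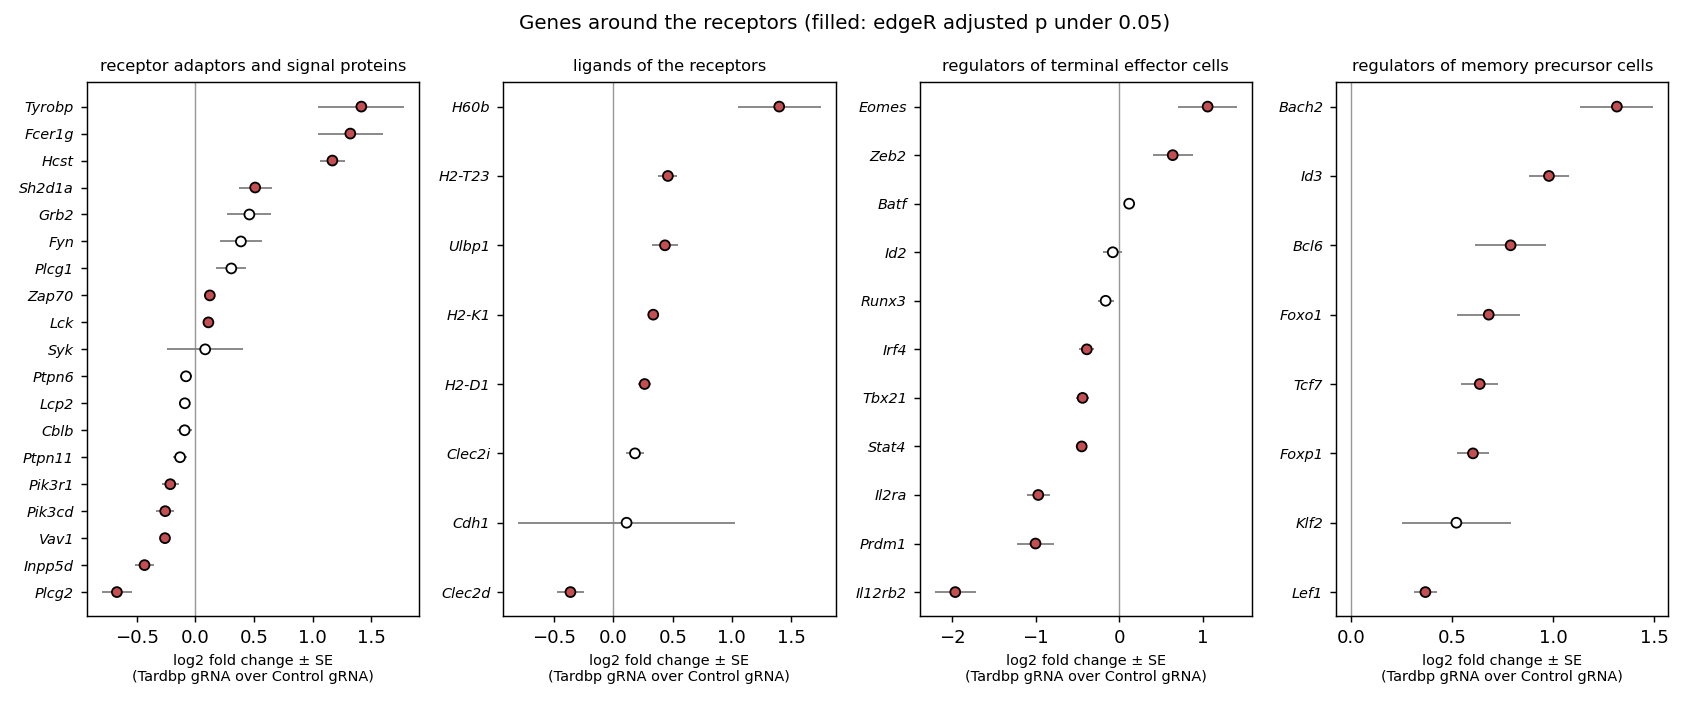
The log2 fold change of Tardbp gRNA over Control gRNA with its SE for the tested genes of 4 lists, filled where the edgeR adjusted p was under 0.05. Hcst, Tyrobp and Fcer1g stand at the top of the adaptors (1.17 to 1.42), H60b at the top of the ligands, Il12rb2 is the lowest regulator (-1.96), and 7 of 8 regulators of memory precursor cells are filled and higher.

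For each member the 3 genes most like it over the 16 libraries were taken, as those with the smallest root mean square difference of log2 CPM centred on each gene's mean. For Klrg1 they were Cd72 (0.222), Gm49392 (0.242) and Eomes (0.272), against an SD of Klrg1 itself of 0.777. Eomes had 12.03, 15.6 and 62.9 CPM in Control gRNA and 33.7, 49.6 and 98.4 CPM in Tardbp gRNA. For Klrk1 they were Ly6c2 (0.182), Arsb and Gimap7, with an SD of Klrk1 of 0.471, and none of these 3 was called between groups. For Klrd1 they were Zfp963 (0.128), Acp5 and Uckl1, for Klrc1 Itgb2 (0.127), Gcat and Plscr3, and for Klrc2 Zbtb32 (0.154), Ggcx and Cit. Klre1 was closest to Hdgfl3 (0.274), Kcnk7 and Tcrg-C4, and Klrb1c to Ldlrad4 (0.446), Slpi and Qpct. The libraries share the group difference and their scaling, so likeness here describes these 16 libraries only.

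Cells of another type could carry several of these genes, so markers were measured beside them. The 8 markers of CD8 T cells were all detected, and their summed level was 3687 to 4614 CPM in Control gRNA and 5515 to 7028 CPM in Tardbp gRNA, with 7 called higher and 1 lower. The 14 markers of natural killer cells, which include Tyrobp, Fcer1g and Klra7, summed to 14.6 to 27.8 CPM in Control gRNA and 20.2 to 40.3 CPM in Tardbp gRNA. Of the 10 tested, 5 were called higher and none lower, beside 23.5% higher and 23.3% lower over all genes. The called genes were Tyrobp, Fcer1g, Klra7, Fcgr3 and Cd244a. Fcgr3 rose by 1.11 and Cd244a by 0.46 on the log2 scale (edgeR adjusted p 0.0239 and 0.0326). Their defining receptor gene Ncr1 was low in all libraries, at 0.198 to 2.24 and 0.30 to 1.70 CPM, and was not called (edgeR adjusted p 0.353). Klrb1f, Itga2, Kit and Styk1 were not called either, at log2 fold changes of -0.04, 0.02, 0.06 and 0.09 (edgeR adjusted p 0.835 to 0.942). Klra8 was at 0 in all 8 Control gRNA libraries and in 6 of 8 Tardbp gRNA libraries, and was found only in Tardbp gRNA replicates 4 and 6. Tardbp gRNA replicates 6 and 4 were highest in this list, at 40.3 and 37.0 CPM. Without both, the log2 fold changes of Klrg1, Klrd1 and Klrc1 were 1.04, 0.51 and -0.49 and were called (edgeR adjusted p 0.0086, 0.00462 and 0.00038), and that of Klrc2 was -0.30 and was not (edgeR adjusted p 0.0638). Tardbp gRNA replicates 1, 3 and 5, at 30.3, 31.9 and 30.8 CPM in this list, still lay above every Control gRNA library. The omission therefore did not remove the marker difference.

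The 4 tested markers of red cell precursors, all globin genes, were called higher, with a sum of 0.442 to 17.2 CPM in Control gRNA and 9.02 to 181 CPM in Tardbp gRNA, where replicates 4 and 1 were highest. Without both, Klrg1, Klrd1 and Klrc1 stayed called at 0.83, 0.58 and -0.50 (edgeR adjusted p 0.0197, 0.001 and 0.00032) and Klrc2 was not (-0.28, edgeR adjusted p 0.0708). Tardbp gRNA replicates 6 and 7, at 50.3 and 59.3 CPM in this list, still lay above every Control gRNA library. The 8 markers of myeloid cells summed to 135 to 176 and 170 to 241 CPM, with 3 called higher. Most of this sum came from Cst3 and Itgax, while Lyz2, a macrophage and neutrophil gene, had 3.77 to 22.3 CPM in Control gRNA libraries and 11.6 to 68.9 CPM in those of Tardbp gRNA (log2 fold change 1.58, edgeR adjusted p 0.00417) and S100a8 a log2 fold change of 2.56 (edgeR adjusted p 0.0316). Those of natural killer T and gamma delta T cells (5 genes) summed to 92.4 to 152 and 173 to 206 CPM, almost all of it from Trdc, whose gene lies within the locus of the T cell receptor alpha chain, with 1 called higher and 2 lower. Markers of CD4 T cells (4 genes, 4.39 to 20.7 and 6.15 to 15.6 CPM) and of B cells (6 genes, 6.99 to 13.8 and 7.28 to 18.9 CPM) had no called gene by edgeR or DESeq2, and 0 and 1 of them had an unadjusted edgeR p under 0.05. No list had a marker with a count of 0 over all libraries. The part of other cells in the receptor results was not tested beyond these values.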

How the data were processed

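RNA from sorted CD8+ T cells of 16 mice was sequenced as SMART-Seq v4 and Nextera XT libraries with paired reads of 100 bases, a kit that keeps no strand. The submitters' processing notes name HISAT2 2.1.0 (alignment, to mm10), SAMtools 1.9, StringTie 2.1.0, R 4.0.5 and DESeq2 1.30.1, and the estimated count of each gene and transcript was made by the authors with StringTie. These deposited estimated counts were whole numbers and were not normalized. PCR copies were counted. The authors' Whippet table gave Psi as a fraction, 1 value for the 8 libraries of a group. Its columns name the groups by letter only, and the first was taken as Control gRNA because transcripts that skip a Tardbp exon with a Psi of 0.999 and 0.831 had at most 0 CPM in Control gRNA and at least 4.73 CPM in Tardbp gRNA libraries. The table's columns of differences and probabilities between groups hold the authors' own comparison and were not used. The deposited counts of read pairs per library were 29714709 to 48164083. Every library held more gene counts than read pairs, so 1 pair could add more than 1 count. Count totals of low genes therefore overstate the number of independent fragments. The deposited RNA concentration and sex letter of each library were used as covariates.

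Of the count tables, 10 columns belonging to none of the 16 samples were left aside. Lines that name no gene (26248 bare numbers and 97 others) held 0.0836 to 0.132% of counts and were left out. Genes and transcripts were those of GENCODE M21.

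Genes were kept with edgeR's filterByExpr (minimum count 10, total 15), scaled by TMM and tested with its quasi-likelihood test (edgeR 4.0.16, R 4.3.3), with Benjamini-Hochberg adjustment over all genes. Transcripts were tested likewise, and shares of a gene's tested transcripts with limma 3.58.1, at a difference over 0.1. Ratios used log2 CPM with a prior count of 2 and exact permutation tests. The gene, share and permutation tests were checked on simulated data. The groups come from the labels. Members and gene lists were chosen with earlier results of these data known. Named genes are the members, Tardbp, adaptors, ligands H2-T23 and Cdh1, called genes among the 3 highest or 3 lowest of each list, and the 3 genes most like each member among genes whose mean log2 CPM reached 1. The values of 1 gene that meets this rule are not reported here. Genes that lie outside this rule (Ptpn6, Ptpn11, Cx3cr1, Gzmb, Havcr2, Klf2, Klrc3, Klra10, Klra14-ps and single markers) were chosen after their values were seen. Whether the same-numbered libraries are paired is not stated. Alternatives were DESeq2 1.42.0, RLE scaling, no filter, a replicate block, covariates, subsets by library number and leaving out each library. Leaving out Tardbp gRNA replicates 4 and 6, or 1 and 4, was chosen after seeing the data. The precision of low genes is limited by their counts, which cover counting error only and not the spread between mice.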

Additional observations from a re-analysis of the deposited data

Results flagged for a closer look

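Among 32 groups of 8 libraries (the 7 members, Hcst, Tyrobp, H2-T23, Tardbp and the 5 ratios, each in both groups), 6 held a library whose gap to its nearest neighbour exceeded Dixon's 95% critical share of the group's range for 8 samples. Independent groups with a normal spread would give about 1.6. The ratios reuse the values of the genes, so the groups are not independent and 6 against 1.6 is no test of an excess. Tardbp gRNA replicate 1 had 12.8 CPM of Klrg1 against 6.25 to 8.22 in the other 7 libraries, and its log2 ratio of Klrg1 to Klrd1 was -3.14 against -4.65 to -4.18. Tardbp gRNA replicate 3 had 412 CPM of Klrc1 against 248 to 315 in the others, and 110 CPM of Tardbp, the lowest, against 130 to 147. Control gRNA replicate 5 had 1.88 CPM of Klrb1c against 0.156 to 0.91 in the others. Control gRNA replicate 4 had 3.45 CPM of Tyrobp against 0.603 to 1.72 in the others.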

How the results depend on the processing

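Of 27 alternatives for the count of members called, 24 gave a count within 1.5 times of 4. The exceptions, each with 1 member called, were the RNA concentration covariate (16.2% of all genes called), the libraries numbered 1 to 3 (10.1%) and a log2 fold change over 1 in size. For the last, the share of all genes is not given here. Leaving out each library in turn gave 3 to 5, with 43.27 to 45.75% of all genes called. The correlation of deviations from the group means was -0.0048 to 0.16 over 8 same-numbered pairs, 2 of which exceeded 0.1. Of the libraries, 5 correlated best with their own number. Low correlations over all genes cannot decide whether the numbers pair the samples. With the replicate block 5 members were called, with Klrb1c added (1.10, edgeR adjusted p 0.0271), beside 45.9% of all genes. The block left 5 transcripts and 0 shares called. With the block the ratio of Klrg1 to Klrd1 passed its exact test (0.56, adjusted p 0.00977), and no other ratio changed its call. With the libraries numbered 4 to 8, the ratio of Klrc2 to Klrc1 (0.36) and that of Klrg1 to Klrd1 (0.66) passed (exact permutation adjusted p 0.0159 for both). Leaving out each library gave log2 differences of -1.15 to -1.07 for Klrc1 to Klrd1, 0.16 to 0.26 for Klrc2 to Klrc1, -1.27 to -1.03 for Klrk1 to Hcst, 0.44 to 0.66 for Klrd1 to Klrk1 and 0.41 to 0.73 for Klrg1 to Klrd1, and for Klrc2 to Klrc1 the call was gained without Control gRNA replicate 1, 2 or 4 or Tardbp gRNA replicate 3. Signs that turned were all of genes not called: Klrk1 with the replicate block (0.012), the RNA concentration covariate (0.55), the libraries numbered 4 to 8 (0.15) and without Control gRNA replicate 1 (0.075) or 2 (0.07), in a range of -0.18 to 0.075 over the libraries left out, Klre1 with the libraries numbered 1 to 3 (-0.078) and Klrb1c with the RNA concentration covariate (-0.28). The cause was not tested. DESeq2, RLE scaling and no filter each called 4 members, beside 48.8%, 46.8% and 25.1% of all genes tested in that setting. In the lists, 1 in place of 2 other receptor genes was called with the libraries numbered 4 to 8. Klrb1c, at 1336 counts over 16 libraries, had the highest SE of the members (0.397).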
